A study of Mus musculus with 768 samples.

Results

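Entpd2, Abca8a, Rxrg, Mmd2 and Pdlim4 were 5 of the 25700 genes in the count table of Schwann cells at postnatal day 5. They had been selected on the fold of their level in immature-like cells over all other cells, in an earlier pass over the same wells. Their high level in immature cells is therefore what chose them, and it is given here as a description with no test. Wells were assigned to 4 states by the reads of other genes. A well was cycling where at least 3 of 10 mitosis genes had 5 or more reads. Of the other wells, those with under 10 CPM (reads scaled to 1e+06 reads per well) of Ncmap, a myelin protein of Schwann cells, were called immature. The rest were called intermediate where Pmp22, a protein of compact myelin, was under 30000 CPM, and myelinating otherwise. Of 768 wells 655 were retained, and 228 of these were immature, 57 cycling, 149 intermediate and 221 myelinating.

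The cells came from sciatic nerves of P0Cre-/+: ReYFP Tg/+: βAct-DsRed Tg/+ pups, in which Cre turns on eYFP in the Schwann cell lineage and DsRed stands under the beta-actin promoter. eYFP-positive cells were collected by sorting, with a single cell in each of 384 wells on 2 plates, and libraries were made with Smart-Seq2, a protocol that reads full-length transcripts and has no molecular identifiers. Each plate held cells pooled from 1 male and 1 female pup, different animals for each plate, and is 1 biological replicate. There was no other treatment or genotype, so states within a plate were the comparison, with n = 2 plates, and wells were not treated as replicates.

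Immature Schwann cells are the stage from which both myelinating and non-myelinating Schwann cells arise: some sort a single large axon out of a bundle and wrap it, others keep several small axons in their folds. The 5 genes belong to different families. Entpd2 encodes an enzyme on the cell surface that removes phosphates from extracellular nucleotides such as ATP, which act as signals between axons and glia. Abca8a is an ATP-binding cassette transporter of the A subfamily, a group that moves lipids across membranes. Rxrg encodes retinoid X receptor gamma, a nuclear receptor that pairs with other receptors, among them those for retinoic acid, thyroid hormone and oxysterols, to bind DNA. Mmd2 is a membrane protein of the progestin and adipoQ receptor (PAQR) family. Pdlim4 has a PDZ and a LIM domain and binds alpha-actinin on actin filaments.

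The genes lie on 4 chromosomes in GRCm38 (GENCODE vM21) and all are protein-coding. Entpd2 (ENSMUSG00000015085) spans chr2:25395874-25401321 on the plus strand, and Rxrg (ENSMUSG00000015843) chr1:167598384-167639623 on the plus strand. Abca8a (ENSMUSG00000041828) spans chr11:110025634-110095978, Pdlim4 (ENSMUSG00000020388) chr11:54054928-54069014 and Mmd2 (ENSMUSG00000039533) chr5:142562358-142608800, all on the minus strand. The 5 genes were all high in the immature state, though not always in the same wells. The 250 bases before a RefSeq start of each (GRCm38.p6) are shown so that their starts can be compared. They run 5′ to 3′ on the strand of the gene. Capitals mark matches, on either strand, to 6 motifs: the core of SOX sites with the letters ACAAAG, the TEAD site GGAATG, the nuclear receptor half-site AGGTCA, the AP-1 site TGANTCA, the GC box with the letters GGGCGG, and the TATA box with the letters TATAAA. Of 2 Rxrg starts the downstream one is shown, since the upstream one held no match.
Entpd2 (chr2:25395624-25395873, plus strand): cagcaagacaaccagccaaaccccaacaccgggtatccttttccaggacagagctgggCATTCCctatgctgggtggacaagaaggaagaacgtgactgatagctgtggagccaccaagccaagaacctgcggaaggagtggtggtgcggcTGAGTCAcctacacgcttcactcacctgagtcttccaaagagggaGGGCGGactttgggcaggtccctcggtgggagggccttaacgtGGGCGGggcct
Abca8a (chr11:110095938-110096187, minus strand): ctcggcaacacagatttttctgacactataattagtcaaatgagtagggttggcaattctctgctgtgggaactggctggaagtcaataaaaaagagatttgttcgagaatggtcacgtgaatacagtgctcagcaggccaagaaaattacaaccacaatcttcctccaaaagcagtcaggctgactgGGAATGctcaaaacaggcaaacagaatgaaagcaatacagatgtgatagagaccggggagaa
Rxrg (chr1:167618015-167618264, plus strand): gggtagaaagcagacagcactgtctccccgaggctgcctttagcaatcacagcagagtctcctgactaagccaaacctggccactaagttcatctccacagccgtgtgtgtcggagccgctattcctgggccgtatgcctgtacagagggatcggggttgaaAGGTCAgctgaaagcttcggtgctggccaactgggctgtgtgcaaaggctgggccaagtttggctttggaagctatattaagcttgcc
Mmd2 (chr5:142608753-142609002, minus strand): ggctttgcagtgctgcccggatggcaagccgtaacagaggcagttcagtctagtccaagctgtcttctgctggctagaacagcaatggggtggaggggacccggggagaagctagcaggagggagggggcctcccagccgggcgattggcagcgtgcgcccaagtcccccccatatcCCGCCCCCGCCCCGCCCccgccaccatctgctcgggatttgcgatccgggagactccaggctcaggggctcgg
Pdlim4 (chr11:54069018-54069267, minus strand): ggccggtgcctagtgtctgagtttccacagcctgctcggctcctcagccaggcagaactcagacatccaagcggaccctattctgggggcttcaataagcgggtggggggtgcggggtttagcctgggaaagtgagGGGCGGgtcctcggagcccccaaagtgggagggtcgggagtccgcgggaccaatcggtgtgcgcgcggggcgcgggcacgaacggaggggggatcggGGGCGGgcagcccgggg

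No motif was shared by all 5 genes. GC boxes were found before Entpd2 (2), Mmd2 (3, all on the reverse strand, 2 of them overlapping by 1 base) and Pdlim4 (2), and 32.7% of 32851 promoter windows of this length held one. The TEAD letters lay 62 bases before the Abca8a start and, on the reverse strand, 192 bases before that of Entpd2, with a share of 12.6% over all windows. Entpd2 also had the AP-1 letters, 99 bases before its start (6.75% of windows), and the downstream Rxrg window had the half-site, 88 bases before the start (14.02%). ACAAAG and TATAAA were in none of the 6 windows, against 16.5% and 12.4% of all. The windows also differed in composition: GC content ran from 43.2% for Abca8a to 69.2% for Pdlim4, around a median of 52.4%, and CpG numbers from 4 to 21, around a median of 6. A match is a run of letters and says nothing of binding.

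Replicate 1 held 226050990 reads and replicate 2 203322077. Median reads per immature well were 476354 and 418998, and per myelinating well 819462 and 719230. Shares of wells below were therefore also taken after thinning each well to 100000 reads. Of 655 wells, 567 met a list of 5 Schwann cell markers. None met a list for neurons, skeletal muscle, satellite glia or astrocytes, immune cells, endothelium, or pericytes with vascular smooth muscle, which allows a share of up to 0.458% of wells for each. A fibroblast-like list was met by 21 wells. The summed level of that list moved with the 5 genes: it was 2415 and 3512 CPM in cycling, 2247 and 2517 in immature, 1138 and 883 in intermediate and 283 and 303 in myelinating cells. Col1a1 and Col3a1, which encode fibrillar collagen chains, made up nearly all of this sum. Pdgfra, a receptor that marks fibroblasts, had no read in cycling or immature cells of either plate, and Dcn and Lum stayed at or under 28.7 CPM in every sum. The part of fibroblast-like RNA in the levels below was not tested. No well name was shared by the plates.

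Entpd2 was the most abundant of the 5 in immature cells, whether or not reads were divided by transcript length. Its level, in CPM of the reads summed over a plate and state, was 620.15 in replicate 1 and 856 in replicate 2 (738 ± 167, SD, n = 2 plates). In cycling cells it was 561 and 491, in intermediate cells 7.98 and 55.0, and in myelinating cells 2.56 and 9.67. Each immature and cycling value thus lay above each intermediate and myelinating value, whereas intermediate and myelinating cells overlapped. Immature levels were 77.7 and 15.6 times those of intermediate cells and 242 and 88.5 times those of myelinating cells. The low values rested on few wells: a single well gave 61.3% of the Entpd2 reads of intermediate cells in replicate 2, and without the top well of each plate the level fell to 4.34 and 22.2 CPM. Entpd2 shares 612 exon bases with its neighbour Npdc1 on the same strand, and 25.9% of its 50-base words occur in Npdc1 transcripts, so its reads could not be fully separated from those of Npdc1.

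Abca8a stood at 269 and 226 CPM in immature cells (247 ± 30.4). In intermediate cells it was 27.1 and 41.1 CPM and in myelinating cells 10.1 and 0.241, and the 3 states did not overlap. The plates disagreed in cycling cells, with 31.4 CPM in replicate 1 and 219 in replicate 2 (125 ± 132). The first of these lay within the intermediate range and the second just under the immature one. The same split appeared in the wells: 8 of 32 cycling wells had at least 10 CPM in replicate 1 (25%, 95% exact interval 11.5 to 43.4), against 19 of 25 in replicate 2 (76.0%, 54.9 to 90.6). The median cycling well had 598527 reads in replicate 1 and 508410 in replicate 2, and the part of depth in this difference was not tested. Of the 50-base words of Abca8a, 1.64% also occur in its neighbouring paralog Abca8b.

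Rxrg stood at 186 and 165 CPM in immature cells (175 ± 14.95) and at 161 and 43.2 in cycling cells (102 ± 83.3). Intermediate cells had 10.3 and 17.1 CPM, below every immature and cycling value. In myelinating cells Rxrg was nearly absent, with 1 read in 108 wells of replicate 1 and 13 reads in 113 wells of replicate 2, or 0.0102 and 0.149 CPM.

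Mmd2, the least abundant of the 5 in immature cells, also per kilobase of exon, was at 73.2 and 119 CPM (96.2 ± 32.5). Cycling cells had 73.5 and 22.7 CPM, so the 2 states were level in replicate 1 and 5.25 times apart in replicate 2. Intermediate cells had 8.62 and 5.43 CPM and myelinating cells 3.70 and 4.78. In the myelinating cells of replicate 1 a single well gave 86.0% of the reads, and without the top wells the levels were 0.523 and 2.52 CPM.

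Pdlim4 was the gene of the 5 with a higher level in cycling than in immature cells on both plates. It stood at 224 and 214 CPM in cycling cells (219 ± 6.95) and at 166 and 143 in immature cells (154 ± 16.2), and these values did not overlap. A single well gave 39.3% of the cycling reads of replicate 2. Without the top well of each plate and state, levels were 178 and 142 CPM in cycling and 138 and 127 CPM in immature cells. Intermediate cells had 1.13 and 0.0240 CPM, the latter from 1 read, and myelinating cells 0.0914 and 3.09 CPM. Nearly all of these reads came from single wells, which held 92.5% of the intermediate reads of replicate 1 and 95.9% of the myelinating reads of replicate 2. Without them the levels were 0.0854 and 0.128 CPM.

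**Figure D1:**
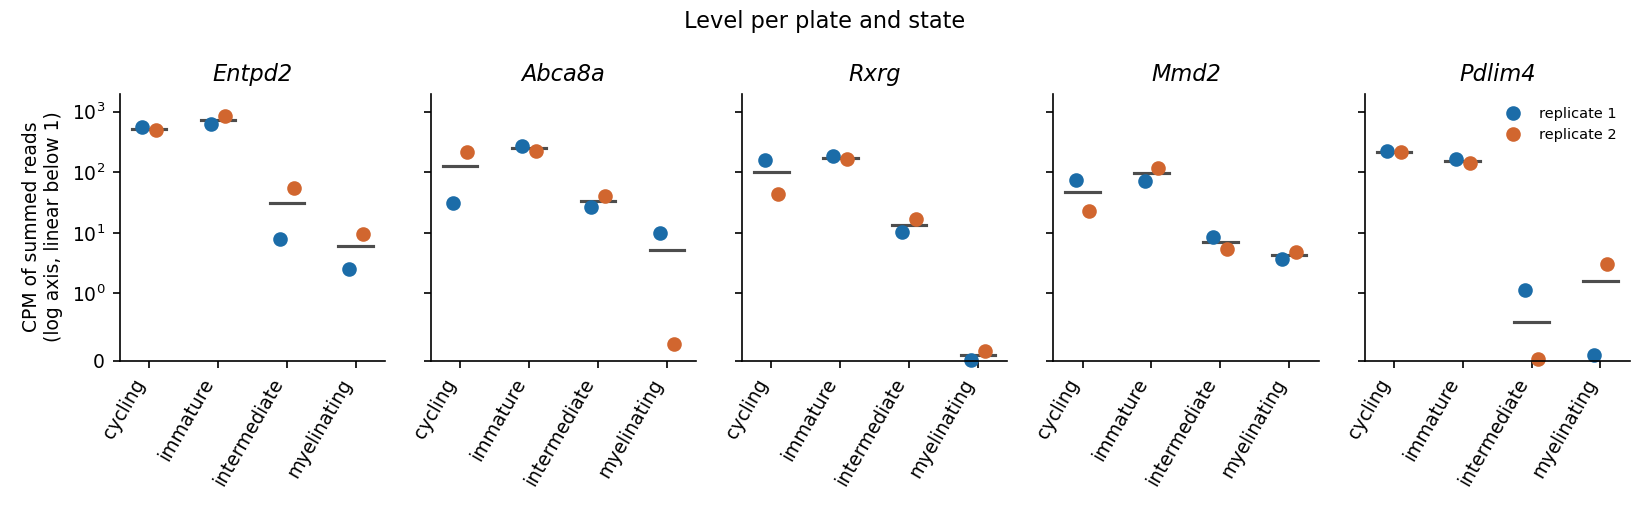
CPM of reads summed per plate and state (log axis, linear below 1) for the 5 genes, with replicate 1 in blue, replicate 2 in orange and the mean of both plates as a line. For every gene both immature points lie above both intermediate and both myelinating points, and Abca8a in cycling cells has plates far apart, at 31.4 and 219 CPM.

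Per kilobase of exon, which allows levels of different genes to be compared, Entpd2 had 347 CPM in immature cells as the mean of both plates, followed by Rxrg with 76.3, Pdlim4 with 60.2, Abca8a with 39.5 and Mmd2 with 18.5. Rxrg and Pdlim4 did not overlap between plates (80.9 and 71.7 against 64.6 and 55.7 CPM per kilobase), nor did any other neighbours in this order. In cycling cells Pdlim4 (85.5) stood above Rxrg (44.5), and the plates of these genes did not overlap there either (87.4 and 83.6 against 70.1 and 18.8).

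None of the genes was detected in every immature well. At a minimum of 10 CPM, Entpd2 was detected in 67.0% of 106 immature wells of replicate 1 and 75.4% of 122 wells of replicate 2 (71.2% ± 5.96, SD, n = 2 plates). Abca8a was detected in 53.8% and 58.2%, Rxrg in 39.6% and 51.6%, Pdlim4 in 34.0% and 34.4% and Mmd2 in 24.5% and 30.3%. In wells that passed this minimum the median level was 764 and 851 CPM for Entpd2, and between 289 and 457 CPM for the other genes. Sums over immature cells thus came from a part of the wells, the smallest part for Mmd2. In cycling wells Entpd2 was detected in 84.4% and 88.0% and Pdlim4 in 59.4% and 48.0%. In myelinating wells no share exceeded 6.48%. Rxrg and Pdlim4 were each positive in 0 of 108 myelinating wells of replicate 1 (95% exact interval up to 3.36%) and in 1 of 113 wells of replicate 2. Intervals cover counting error only. After thinning, which left out 0 to 7 shallower wells of a plate and state, the shares of immature wells stayed above those of intermediate and myelinating wells for each gene, with 67.3% and 76.9% against 8.33% and 17.4% of intermediate wells for Entpd2. So did those of cycling wells, with the exception of Abca8a in replicate 1 (19.4% of cycling wells, against 18.1% and 24.6% of intermediate wells).

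**Figure D2:**
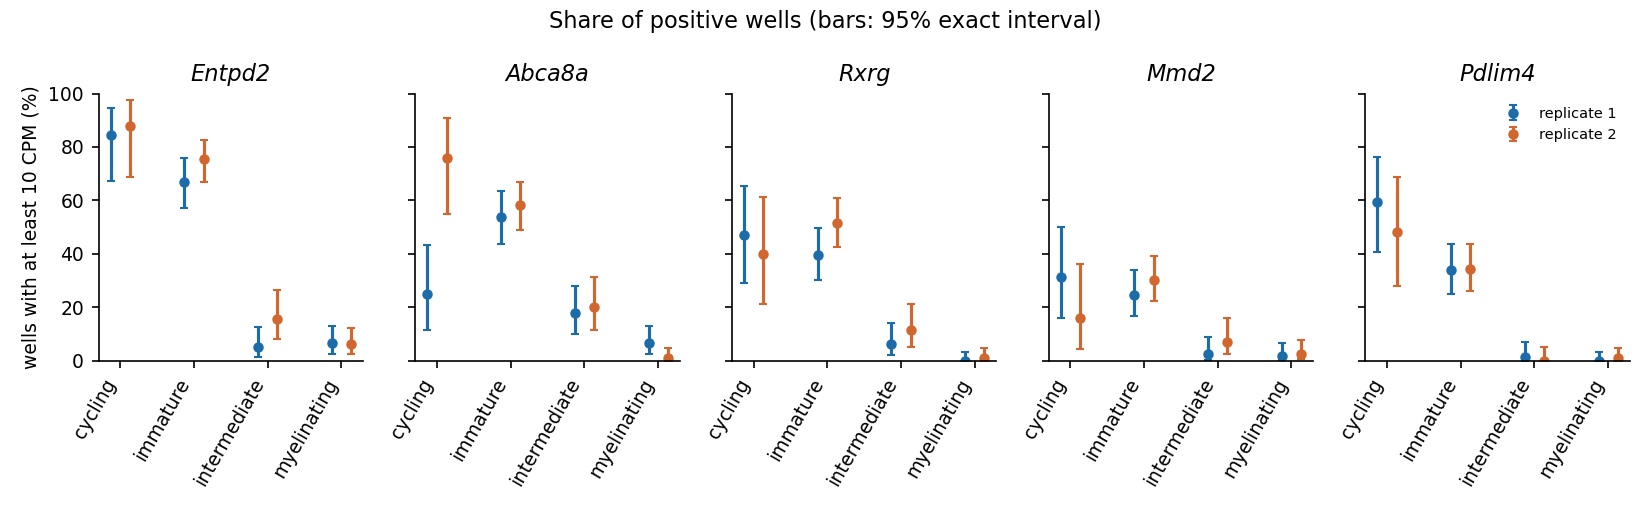
Percent of wells with at least 10 CPM of each gene by state and plate, with 95% exact (Clopper-Pearson) intervals. Shares are highest in cycling and immature wells, reach 88.0% for Entpd2, and stay at or under 20% in intermediate and 6.48% in myelinating wells.

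Cycling, intermediate and myelinating cells were all on the other side of the ranking that chose the genes, and the difference between them was tested. Most wells on that side were intermediate (149) or myelinating (221), against 57 cycling wells. Low levels in intermediate and myelinating cells thus helped to choose the genes. The counts of the 5 genes called higher in cycling cells, and their p-values against these 2 states, are therefore not independent of that choice. In edgeR's quasi-likelihood test on summed reads, cycling cells were compared with intermediate cells, and 608 of 13892 genes tested, 4.38%, were higher in cycling cells (9.42% either way). Entpd2, Mmd2 and Pdlim4 were among them, 3 of the 5, and all 5 passed the filter on low counts. The log2 change of Entpd2 was 4.04 (SE 0.873, adjusted p = 0.0217), with plate ratios of 6.05 and 3.15 on the log2 scale. That of Pdlim4 was 8.49 (SE 1.71, adjusted p = 0.0160), a fitted value that depends on the prior count since replicate 2 had 1 read in intermediate cells. Mmd2 had 2.73 (SE 0.636, adjusted p = 0.0304), a call that was lost with the plate as a replicate block (adjusted p = 0.0514) and with a Pmp22 threshold of 20000 CPM (adjusted p = 0.0690). Rxrg had a log2 difference of 2.86 (SE 0.773) that missed the threshold (adjusted p = 0.0527, from 5.10e-05 to 0.216 over 12 alternatives). Abca8a, whose plates disagreed, had 1.86 (SE 1.27, adjusted p = 0.410).

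Between cycling and myelinating cells 835 genes, 6.01%, were higher in cycling cells (12.7% either way). Entpd2, Rxrg, Mmd2 and Pdlim4, 4 of the 5, were among them, and each was called under all 12 alternatives. Low myelinating levels helped to choose the genes, so these calls and their p-values are not independent of the choice either. The log2 change was 6.15 for Entpd2 (SE 0.965, adjusted p = 0.00374), 3.22 for Mmd2 (SE 0.649, adjusted p = 0.0120) and 6.83 for Pdlim4 (SE 1.57, adjusted p = 0.0223). That of Rxrg was 10.04 (SE 1.10, adjusted p = 5.18e-04), which depends on the prior count because of the 1 and 13 reads in myelinating cells. Abca8a had 4.32 (SE 1.41, adjusted p = 0.0861) and was called under 4 of 12 alternatives.

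Myelinating and intermediate cells, which are set apart by Pmp22 alone, differed in fewer genes. Of those tested, 59 genes, 0.425%, were higher in intermediate cells (0.77% either way), and Rxrg was 1 of them. Its log2 change from intermediate to myelinating cells was -7.18 (SE 0.999, adjusted p = 0.0138), again with few reads on the low side, while ratios within the plates, with 0.5 CPM added to each side, were -4.41 and -4.76. The call held under 11 of 12 alternatives and was lost with a Pmp22 threshold of 20000 CPM (adjusted p = 0.193). The other 4 genes missed the threshold: Entpd2 had -2.11 (adjusted p = 0.438), Abca8a -2.46 (adjusted p = 0.625), Mmd2 -0.49 (adjusted p = 0.935) and Pdlim4 1.66 (adjusted p = 0.820). The plate ratios of Pdlim4 differed in sign (-1.46 and 2.78), and a single well gave 95.9% of its myelinating reads in replicate 2.

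Non-cycling wells were also grouped by their Pmp22 level. Cycling wells had been set aside by the state rule, and 30000 CPM is also a border of that rule. Among non-cycling wells of replicate 1, Entpd2 was detected in 53.1% of wells under 1000 CPM of Pmp22, in 58.9% from 1000 to 3000, in 45.1% from 3000 to 10000, in 4.35% from 10000 to 30000 and in 7.22% from 30000 to 100000. In replicate 2 these shares were 65.6%, 78.9%, 46.9%, 17.9% and 6.31%. Rxrg dropped from 21.6% and 39.1% of wells at 3000 to 10000 CPM to 4.35% and 5.13% at 10000 to 30000. Abca8a kept the largest share of the 5 in that last range, 19.6% and 25.6%. Wells from 3000 to 10000 CPM of Pmp22 were of mixed state, with 28 of 51 immature in replicate 1 and 39 of 64 in replicate 2, whereas from 10000 CPM on 2 and 1 wells were immature. The drop in detection thus went with the drop in immature wells, whose high levels chose the genes. It is a description and no test. At the Ncmap border, Entpd2 was detected in 69.0% of 174 immature wells with no Ncmap read and in 79.6% of 54 with some Ncmap below 10 CPM. Just outside, 2 of 8 intermediate wells with 10 to 100 CPM of Ncmap had Entpd2, and 9.22% of 141 with more.

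**Figure D3:**
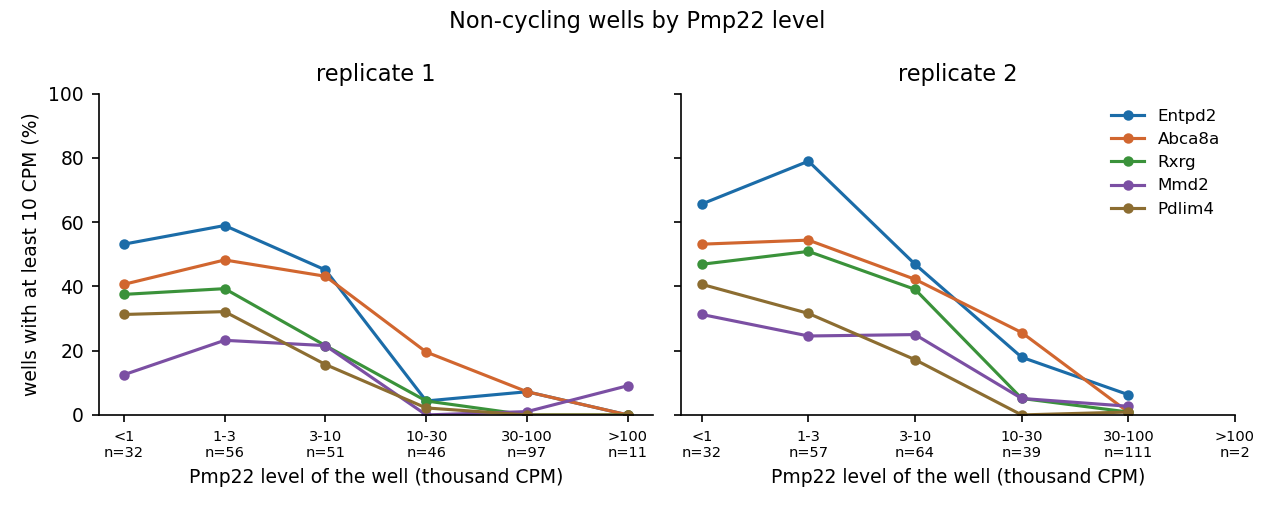
Percent of non-cycling wells with at least 10 CPM of each gene, by the Pmp22 level of the well (axis in units of 1000 CPM), for each plate. The number of wells in each range is under the axis, and ranges under 5 wells are not drawn. Entpd2 drops from 45.1% and 46.9% of wells at 3000 to 10000 CPM to 4.35% and 17.9% at 10000 to 30000 CPM. Few wells from 10000 CPM on are immature, the state whose high levels chose the genes.

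Detection of the 5 genes overlapped in part. In replicate 1, 87 of 106 immature wells (82.1%) had at least 1 of the genes and 49 (46.2%) at least 3. In replicate 2, 115 of 122 wells (94.3%) had at least 1 and 62 (50.8%) at least 3. All 5 were detected together in 3 and 4 wells. Of cycling wells 31 of 32 and 24 of 25 had at least 1 gene, and 15 and 14 at least 3. Of intermediate wells 29.1% and 42.9% had at least 1 gene and 0 and 2 wells at least 3. Of myelinating wells 11.1% and 11.5% had at least 1, and none had 3.

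**Figure D4:**
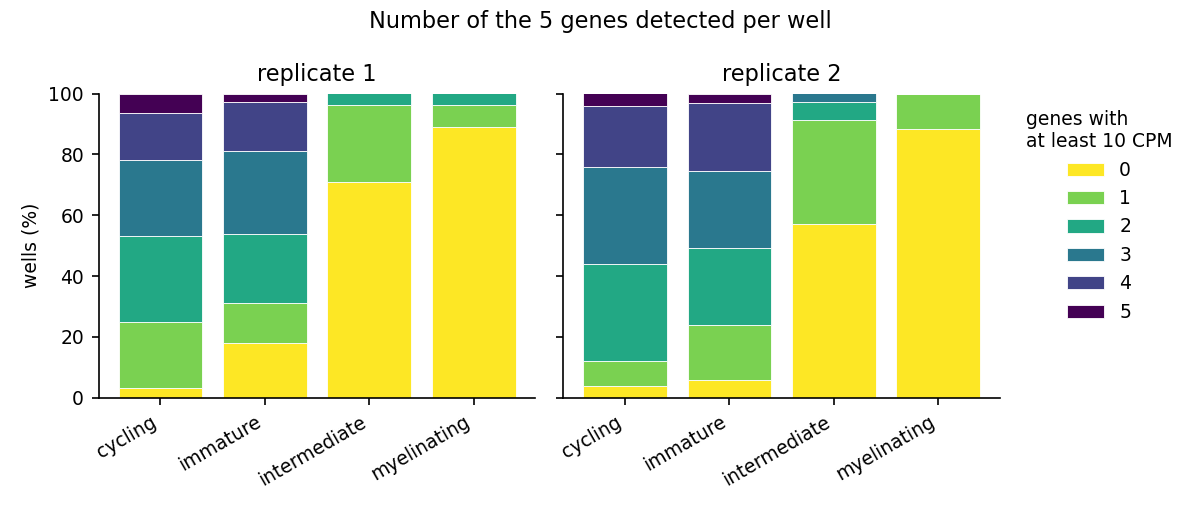
Stacked percent of wells by how many of the 5 genes reached 10 CPM, for each state and plate. Wells with 3 or more genes make up 46.2% and 50.8% of immature wells and 46.9% and 56.0% of cycling wells, against 0 and 2 intermediate wells.

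Within immature wells the genes were weakly related, as described by Pearson's r of log2(CPM + 10) in each plate. These wells share a library plate, and r between a gene and log2 reads per well was from -0.145 to 0.142. The highest values were for Entpd2 with Abca8a (0.427 over 106 wells and 0.305 over 122) and Entpd2 with Mmd2 (0.298 and 0.399). Of Entpd2-positive wells 69.0% and 63.0% were also Abca8a-positive, against 22.9% and 43.3% of Entpd2-negative wells. Abca8a and Rxrg were near 0 (0.0343 and 0.00827), and Abca8a with Pdlim4 differed in sign between plates (0.184 and -0.0934).

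Immature wells with none of the 5 genes were 19 in replicate 1 and 7 in replicate 2. They held the Schwann cell transcription factor Sox10 at 194 and 338 CPM, against 308 and 295 CPM in wells with at least 3 of the genes. Ncam1, a neural cell adhesion molecule of immature cells, was at 382 and 272 CPM in them, against 598 and 557. Scn7a, a sodium channel of non-myelinating Schwann cells, was at 0.628 and 0 CPM, against 139 and 298. S100b, a calcium-binding protein of Schwann cells, went the other way, with 934 and 849 CPM, against 112 and 80.5. Median reads per well were 592361 and 319200 without the genes, against 428419 and 411899 with at least 3.

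Ngfr, the low-affinity neurotrophin receptor and a marker of immature and non-myelinating Schwann cells, was not used by the state rule or to choose the genes, and it split immature cells in each plate. At 10 CPM or more, 45 wells of replicate 1 and 46 of replicate 2 were Ngfr-positive, and 61 and 76 were negative. Median reads per well were alike on both sides, 467735 against 484939 and 418973 against 422447. Entpd2 stood at 940 and 1510 CPM in Ngfr-positive and 393 and 420 CPM in Ngfr-negative wells, which did not overlap. It was detected in 82.2% and 91.3% of positive and 55.7% and 65.8% of negative wells. In edgeR's quasi-likelihood test the log2 difference of 1.59 (SE 0.734) did not pass the threshold (adjusted p = 0.608, unadjusted p = 0.0547). Of 13807 genes tested 13, or 0.0942%, passed in either direction, 1140 (8.26%) had an unadjusted p under 0.05, and DESeq2 called 441 (3.19%). None of the 5 genes was called by either tool. The other differences were 1.13 for Mmd2 (SE 0.624, adjusted p = 0.649), 1.03 for Abca8a (SE 1.15, adjusted p = 0.867), 0.45 for Rxrg (SE 0.670, adjusted p = 0.922) and -0.12 for Pdlim4 (SE 1.15, adjusted p = 1). Abca8a (359 and 352 against 205 and 142 CPM) and Rxrg (203 and 214 against 174 and 132 CPM) did not overlap either. Neither did Mmd2 (75.1 and 210.1 against 71.8 and 58.5 CPM), which was nearly level in replicate 1. Pdlim4 overlapped. The share of all genes without overlap was not counted, so nothing particular to the 5 genes is read from this.

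The genes whose pattern over wells was most like that of each of the 5 were ranked among 5815 protein-coding genes by the smaller r of both plates. Over all 325 and 330 retained wells, r for Entpd2 was highest with Rarres2, which encodes chemerin (0.672 and 0.709), Lrrc61 (0.662 and 0.704) and Ptn, which encodes the growth factor pleiotrophin (0.624 and 0.652). Rxrg was most like Rarres2 (0.474 and 0.529), Sparcl1 (0.461 and 0.511) and Lrrc61 (0.453 and 0.529). Abca8a was most like Entpd2 itself (0.494 and 0.562), then Dbi, an acyl-CoA-binding protein (0.403 and 0.429), and Postn, the matrix protein periostin (0.401 and 0.409). Mmd2 was also most like Entpd2 (0.422 and 0.448), then Scn7a (0.394 and 0.412) and Ncam1 (0.364 and 0.364). Pdlim4 was most like Postn (0.474 and 0.490), Ncam1 (0.460 and 0.467) and Entpd2 (0.494 and 0.401). These values carry the difference between states.

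Over immature wells alone the order changed. Entpd2 was then most like Npdc1 (0.625 and 0.705), the gene with which it shares exon sequence, followed by Wwp1, a ubiquitin ligase (0.600 and 0.609), and Lrrc61 (0.515 and 0.539). Wwp1 was also first for Abca8a (0.461 and 0.342), followed by Scn7a (0.308 and 0.327) and Entpd2. For Mmd2 they were Scn7a (0.391 and 0.401), Entpd2 (0.298 and 0.399) and Wwp1 (0.279 and 0.421). Pdlim4 had other neighbours, Spry2 (0.316 and 0.351) and Dusp6 (0.278 and 0.275), both inhibitors of growth factor signalling through ERK, and the matrix-associated protein gene Ccn1 (0.435 and 0.256). Rxrg stayed at low values, with Arpc1b, a subunit of the actin-branching Arp complex (0.2996 and 0.292), Rarres2 (0.256 and 0.312) and Dbi (0.286 and 0.253).

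Genes related to the 5 by family or pathway were tested between myelinating and immature cells, where 349 genes, 2.51% of those tested, were higher in immature cells and 5.1% differed either way. Of 60 such genes tested 3 were higher in immature cells and none was higher in myelinating cells, where 2.58% of all genes tested were. The median log2 change from immature to myelinating cells over all genes tested was -0.04.

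Of 25 genes of nucleotide hydrolysis and purinergic signalling, the pathway of Entpd2, 18 were tested and none passed the threshold (median -0.49). Of the other members of the Entpd family, Entpd1 and Entpd3 had at most 2.07 and 2.30 CPM in any sum and were not tested. Entpd4 stood at 11.1 and 29.7 CPM in immature and 23.2 and 19.9 CPM in myelinating cells (adjusted p = 0.878). The ATP-gated channel genes P2rx4 (80.9 and 86.5 CPM in immature, 85.4 and 85.4 in myelinating cells, adjusted p = 0.756) and P2rx7 (107 and 107 against 80.8 and 71.5, adjusted p = 0.947) had levels in both states. Nt5e, which encodes the enzyme that turns AMP into adenosine, had no read in immature cells of either plate, and 4 genes of the list, P2ry6, Adora1, Adora2a and Adora3, had none in any sum.

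Of 11 lipid transporter genes of the ABCA and ABCG groups, 10 were tested and 2 were higher in immature cells (median -0.02). Abca8b, the paralog next to Abca8a, stood at 77.9 and 105 CPM in immature and 0.477 and 2.01 CPM in myelinating cells, with a change of -5.82 on the log2 scale (SE 0.790, adjusted p = 0.00319). It had 83.8 CPM in cycling cells as the mean of both plates and 4.34 in intermediate cells. Abca1, which exports cholesterol, stood at 60.2 and 54.0 CPM in immature and 2.88 and 0.527 CPM in myelinating cells, with a change of -4.67 on the log2 scale (SE 0.928, adjusted p = 0.0213). Unlike Abca8a and Abca8b it had 61.6 CPM in intermediate and 7.93 CPM in cycling cells as means, and its call was lost with a Pmp22 threshold of 40000 CPM (adjusted p = 0.0906). Abca2 (32.1 and 7.09 against 81.8 and 108 CPM, adjusted p = 0.0888) and the cholesterol exporter Abcg1 (13.4 and 11.1 against 71.6 and 32.3 CPM, adjusted p = 0.0620) had higher values in myelinating cells that missed the threshold.

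Of 24 genes of retinoid handling and of receptors that pair with RXR, 17 were tested and 1 was higher in immature cells (median -0.30). Crabp1, which binds retinoic acid in the cytoplasm, stood at 12.6 and 15.4 CPM in immature cells and had 1 read on each plate in myelinating cells (adjusted p = 0.00115). Its level was highest in cycling cells, with 67.2 and 44.4 CPM, and its mean in intermediate cells was 0.012 CPM. The other retinoid X receptors did not pass: Rxra had 16.1 and 14.8 CPM in immature and 6.22 and 7.93 CPM in myelinating cells (adjusted p = 0.873), and Rxrb 12.01 and 17.2 against 9.45 and 8.77 CPM (adjusted p = 0.947). Rxra, Rxrb and the retinoic acid receptors Rara, Rarb and Rarg all stayed under 28 CPM in immature cells of both plates. Dhrs3, which reduces retinal to retinol, had 196 and 147 CPM in immature and 60.7 and 45.6 CPM in myelinating cells (adjusted p = 0.0776).

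None of 8 PAQR genes tested (of 10; median 1.00) and none of 7 PDLIM and alpha-actinin genes tested (of 10; median 0.13) passed. Mmd, the paralog that gives Mmd2 its name, had 3.17 and 3.27 CPM in immature and 6.60 and 8.18 CPM in myelinating cells (adjusted p = 0.473). The adiponectin receptor gene Adipor1 had 204 and 169 against 326 and 232 CPM (adjusted p = 0.101). Pdlim1 had 24.5 and 10.5 CPM in immature cells against 0 and 0.309 CPM (adjusted p = 0.207), whereas Pdlim7 had 58.2 and 76.7 CPM against 72.8 and 92.4 (adjusted p = 0.527). Of the alpha-actinin genes, Actn4 had 38.8 and 46.6 CPM against 40.3 and 31.2 (adjusted p = 0.934).

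Apart from these families, 10 genes were taken as known markers of immature and non-myelinating Schwann cells, so that a higher level in immature cells is what put them on the list. Of these, 9 were tested and 3 were higher in immature cells (median -6.79). Ncam1 stood at 516 and 473 CPM in immature and 2.98 and 3.89 CPM in myelinating cells, with a change of -6.79 on the log2 scale (SE 0.362, adjusted p = 2.45e-05). Jun, a transcription factor that opposes myelination, stood at 868 and 1234 CPM against 148 and 64.8 CPM (adjusted p = 0.00469). Chl1, an adhesion molecule related to L1cam, stood at 54.2 and 51.5 CPM against 4 and 9 reads (adjusted p = 0.0254), and its call was lost with a Pmp22 threshold of 20000 CPM (adjusted p = 0.392). Ngfr (77.2 and 55.1 against 0.528 and 0.0459 CPM, adjusted p = 0.0692) and Scn7a (89.4 and 161 against 0.0711 and 0.928 CPM, adjusted p = 0.0917) did not overlap between states but missed the threshold. Gfap had no read in immature cells of either plate.

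**Figure D5:**
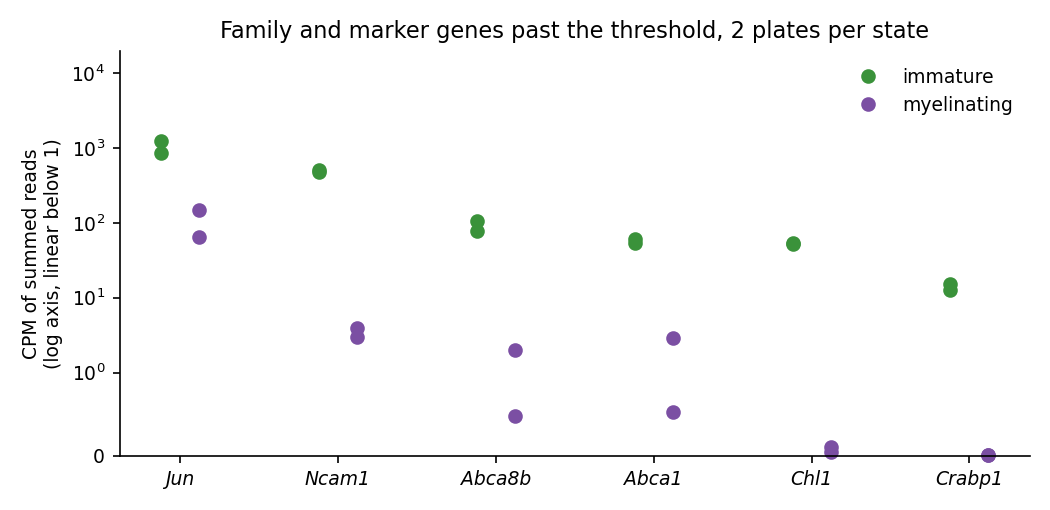
CPM of summed reads (log axis, linear below 1) of the 3 genes of related families (Abca8b, Abca1, Crabp1) and the 3 immature Schwann cell markers (Jun, Ncam1, Chl1) past the threshold, in immature (green) and myelinating (purple) cells, with 1 point per plate. All immature points lie above the myelinating points, from Jun with 868 and 1234 CPM to Crabp1 with 12.6 and 15.4 CPM.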

How the data were processed

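Single eYFP-sorted Schwann cells of mouse sciatic nerve at postnatal day 5 were measured in 2 plates of 384 wells. The authors deposited raw read counts per gene and well. Their processing notes name bcl2fastq, STAR 2.6.1c, featureCounts and GRCm38.p5, and the paper's methods name another STAR version and a human build, although the identifiers are of mouse. Identifiers were matched to GENCODE vM21 (25664 of 25700; the others held 0.0821% of reads). Whether counting used strand is not given in the sources used here.

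Corner wells and wells under 1500 detected genes were left out, which left 655. Wells were not screened for doublets, by a caller or otherwise. Depth was 316 to 2495101 reads per well in replicate 1 and 169 to 2149795 in replicate 2. CPM was computed from the deposited counts, per well or from reads summed per plate and state.

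For tests, the 8 sums were fitted in edgeR 4.0.16 (R 4.3.3; quasi-likelihood, TMM, filterByExpr; 4 residual degrees of freedom, common dispersion 0.713), with 12 rule genes left out, and p-values were adjusted by Benjamini-Hochberg over all genes tested at 0.05. A fit of 10 sums split immature cells by Ngfr. With 2 plates, p-values rest on 1 spread shared by all states. On data simulated without change between myelinating and immature cells the test made no call. Those data were drawn with the dispersions that edgeR had estimated and with no plate effect. The test was thus checked only under its own assumptions. The members and lists were chosen with earlier results of these data known.

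Since all cells of a plate came from the same pool of animals, the plate number pairs the sums of different states. Within a plate, deviations from the state means correlated with r near 0 for the 6 pairs of states (1990 genes, r from -0.0106 to 0.124). A fit with the plate as replicate block was an alternative, beside DESeq2 1.42.0, other filters, scalings and state thresholds, and thinned reads.

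Genes named were the 5 members, for each the 3 genes with the highest smaller r of both plates (mean of at least 20 CPM), and up to 4 genes past the threshold per related list. Items withheld for evaluation are not reported here and were left out of the list counts. Other genes of the lists were named for their role after their values were seen. A rule to name the nearest paralog by protein identity was not run, since no protein sequences were used here. Promoter sequences are from RefSeq (GRCm38.p6), where all 5 genes were matched.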

Additional observations from a re-analysis of the deposited data

Results flagged for a closer look

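Reads of the 5 genes also appeared in 105 wells, corner wells apart, that were left out of the comparisons because they had under 1500 detected genes. They are given because these wells were not used elsewhere, and each total is above the 3 reads that a count of 0 allows. Over these wells there were 10 Entpd2 reads in 8 wells, 69 Abca8a reads in 14 wells, 6 Rxrg reads in 5 wells, 7 Mmd2 reads in 5 wells and 9 Pdlim4 reads in 6 wells. A single well held 45 of the 69 Abca8a reads. The 105 wells held 7279040 reads in all, so the levels were 1.37 CPM for Entpd2, 9.48 for Abca8a, 0.824 for Rxrg, 0.962 for Mmd2 and 1.24 for Pdlim4. The 8 corner wells held 1 read of Abca8a and none of the other genes.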

How the results depend on the processing

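All 5 genes had a higher level, and a larger share of positive wells, in both immature and cycling cells than in both other states. This count was the same under every alternative, including with either plate alone (5 to 5). The genes were chosen for a high immature level, and low levels in intermediate and myelinating cells helped to choose them. The count and its stability are therefore a description and no test. The share of all genes with this pattern is not given. Of 240 values of single tests of the 5 genes under alternatives, 223 kept their direction and their side of the threshold, 12 came to pass it, 3 no longer did, and 2 changed sign without passing it, both for Pdlim4. Its log2 change from intermediate to myelinating cells was -1.43 with an Ncmap threshold of 5 CPM (1.66 in the report) and -1.46 to 2.78 with 1 plate left out. Its difference in the Ngfr split was 0.27 after thinning (-0.12 in the report) and -0.74 to 0.37 with 1 plate left out. Of 471 levels and shares 433 moved by less than the spread between plates. Leaving out the top well of each plate and state was an alternative chosen after seeing the data.

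Counts of genes past the threshold rose with DESeq2 to 2700 for cycling against intermediate (from 1309), 3211 for cycling against myelinating (1760), 646 for intermediate against myelinating (107), 1521 for myelinating against immature (708) and 441 for the Ngfr split (13). Without the filter on low counts they were 420, 1187 and 260 for the last 3, and after thinning 209 for intermediate against myelinating and 38 for the Ngfr split. Of the genes on the family and marker lists together, 15 passed with no filter, 18 with DESeq2 and 12 after thinning, against 6. With no filter 3 of the 5 genes passed between intermediate and myelinating cells (Entpd2, adjusted p = 0.00122; Abca8a, adjusted p = 0.0307; and Rxrg) and 1 in the Ngfr split (Entpd2, adjusted p = 2.49e-08), and with a Pmp22 threshold of 20000 CPM 0 passed between intermediate and myelinating cells. The cause was not tested. With the plate as replicate block, 1114, 94, 1591, 673 and 14 genes passed in cycling against intermediate, intermediate against myelinating, cycling against myelinating, myelinating against immature and the Ngfr split, and of the calls on the 5 genes only that of Mmd2 between cycling and intermediate cells changed (adjusted p = 0.0514). The low levels rest on few reads, 1 and 13 of Rxrg in myelinating and 53 and 1 of Pdlim4 in intermediate cells, which limits the precision of their folds.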
